A study of Rattus norvegicus with 12 samples.

Results

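The genes described here encode ABC exporters other than the MRP family: the drug pumps P-glycoprotein (Abcb1a and Abcb1b) and BCRP (Abcg2), the canalicular lipid and bile salt pumps Abcb4 and Abcb11, and the sterol exporters Abca1, Abcg1, Abcg5 and Abcg8. They were taken by name, as every probe set of a rat Affymetrix 3′ array whose annotation lists 1 of these genes alone. This gave 14 probe sets of 8 of the 9 genes, out of 31042 probe sets other than controls and 14217 genes with a probe set of their own. Abcb1b had no probe set of its own and shared 1 with Abcb1a, which is given beside the others and not counted among the 14.

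ABC exporters use ATP to move substrates out of a cell, and several of them share substrates with MRP2, the product of Abcc2. P-glycoprotein and BCRP sit in the brush border of proximal tubule cells, where they pass drugs and, for BCRP, urate and sulfate conjugates into the tubular fluid. Abca1 and Abcg1 load cholesterol onto apolipoproteins and high-density lipoprotein, and both are induced by the oxysterol receptor LXR, most visibly in macrophages. Abcg5 and Abcg8 form 1 sterol pump, and Abcb4 and Abcb11 supply phospholipid and bile salts to bile, so these 4 are known chiefly from liver and, for the sterol pump, intestine.

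The samples were renal cortex of 12 kidney grafts, all in wild-type recipients and all from male rats as labelled. In 6 grafts the kidney was ABCC2-/- (deficient in MRP2) and in 6 it was wild type, with 1 array for each graft. The sources used here do not give strain, age, mutation or time after transplantation. They do not say either whether different donors supplied the 6 kidneys of a genotype, so a p-value reflects only graft-to-graft spread, which may be technical. Recipient cells that entered a graft were wild type in both groups, and kidneys that were not transplanted are not analysed here. The values are deposited signals on a linear scale with an arbitrary unit. They were raised to a floor of 0.0694 and taken to log2, and probe sets with a mean above the 40th percentile were tested, 18625 in all. Differences are log2 signal in ABCC2-/- minus log2 signal in wild-type grafts, with the standard error (SE) of a limma fit over all tested probe sets. The number of arrays limits the precision.

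Abcc2 itself checked the labels, though it is not known here whether its probe set overlaps the mutation. Its signal was 0.141 ± 0.0594 in ABCC2-/- grafts and 0.899 ± 0.0746 in wild-type grafts (SD, n = 6 each), without overlap. All 14 proximal tubule markers that were listed passed the level filter, with a summed signal of 378 to 427 in ABCC2-/- and 389 to 462 in wild-type grafts. Of 12 hepatocyte markers 6 passed the filter, with a summed signal of 2.46 to 14.3 in ABCC2-/- and 4.04 to 7.87 in wild-type grafts. Cyp2c11 ranged between 0.478 and 11.8 over the arrays, while albumin was under the floor in 5 of the 12 arrays and at most 0.164. The arrays also fell into 2 sets of 6, each with 3 grafts of each genotype, along the first component of the variation within genotypes, which held 32.6% of it. Array set 2 held ABCC2-/- replicates 3, 10 and 14 and wild-type replicates 4, 7 and 8. Its highest signals were 136 to 138 in ABCC2-/- and 111 to 153 in wild-type arrays. In array set 1 they were 96.4 to 109 in ABCC2-/- and 88.7 to 93.1 in wild-type arrays. The log2 ratio of the 3′ to the 5′ Gapdh control probe sets, a measure of RNA and labelling quality, was 0.359 to 0.449 in the ABCC2-/- arrays of set 2 and 0.71 to 0.947 in all other arrays. The labels name no batch, so the origin of the sets is not known here. Tests within a set are descriptions, because the sets were drawn from these same values. In set 2 genotype and the Gapdh ratio cannot be told apart.

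No exporter passed the test between the genotypes after adjustment over all probe sets. Of the 14 probe sets, 8 of 5 genes (Abcb1a, Abcb4, Abcg1, Abcg2 and Abca1) passed the level filter. In limma with Benjamini-Hochberg adjustment 0 of these 8 passed an adjusted p of 0.05, where 0.0215% of all tested probe sets did, and the lowest adjusted p was 0.614. At an unadjusted p under 0.05 it was 1 of 8, against 7.98% of all tested probe sets, and by the exact permutation test 0 of 8, against 7.61%. The 6 probe sets under the filter (Abcb11, Abcg5, Abcg8, 2 of Abcg1 and 1 of Abca1) were taken from a limma fit of all 31042 probe sets. None of the 14 passed there either, at an adjusted or an unadjusted p of 0.05, where 0.0161% and 7.3% of all did. In none of the 14 were the genotypes without overlap, which held for 0.435% of the tested probe sets. Within array set 1 alone and within array set 2 alone 0 of the 8 passed as well, while 0.0215% and 6.39% of all tested probe sets did.

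**Figure D1:**
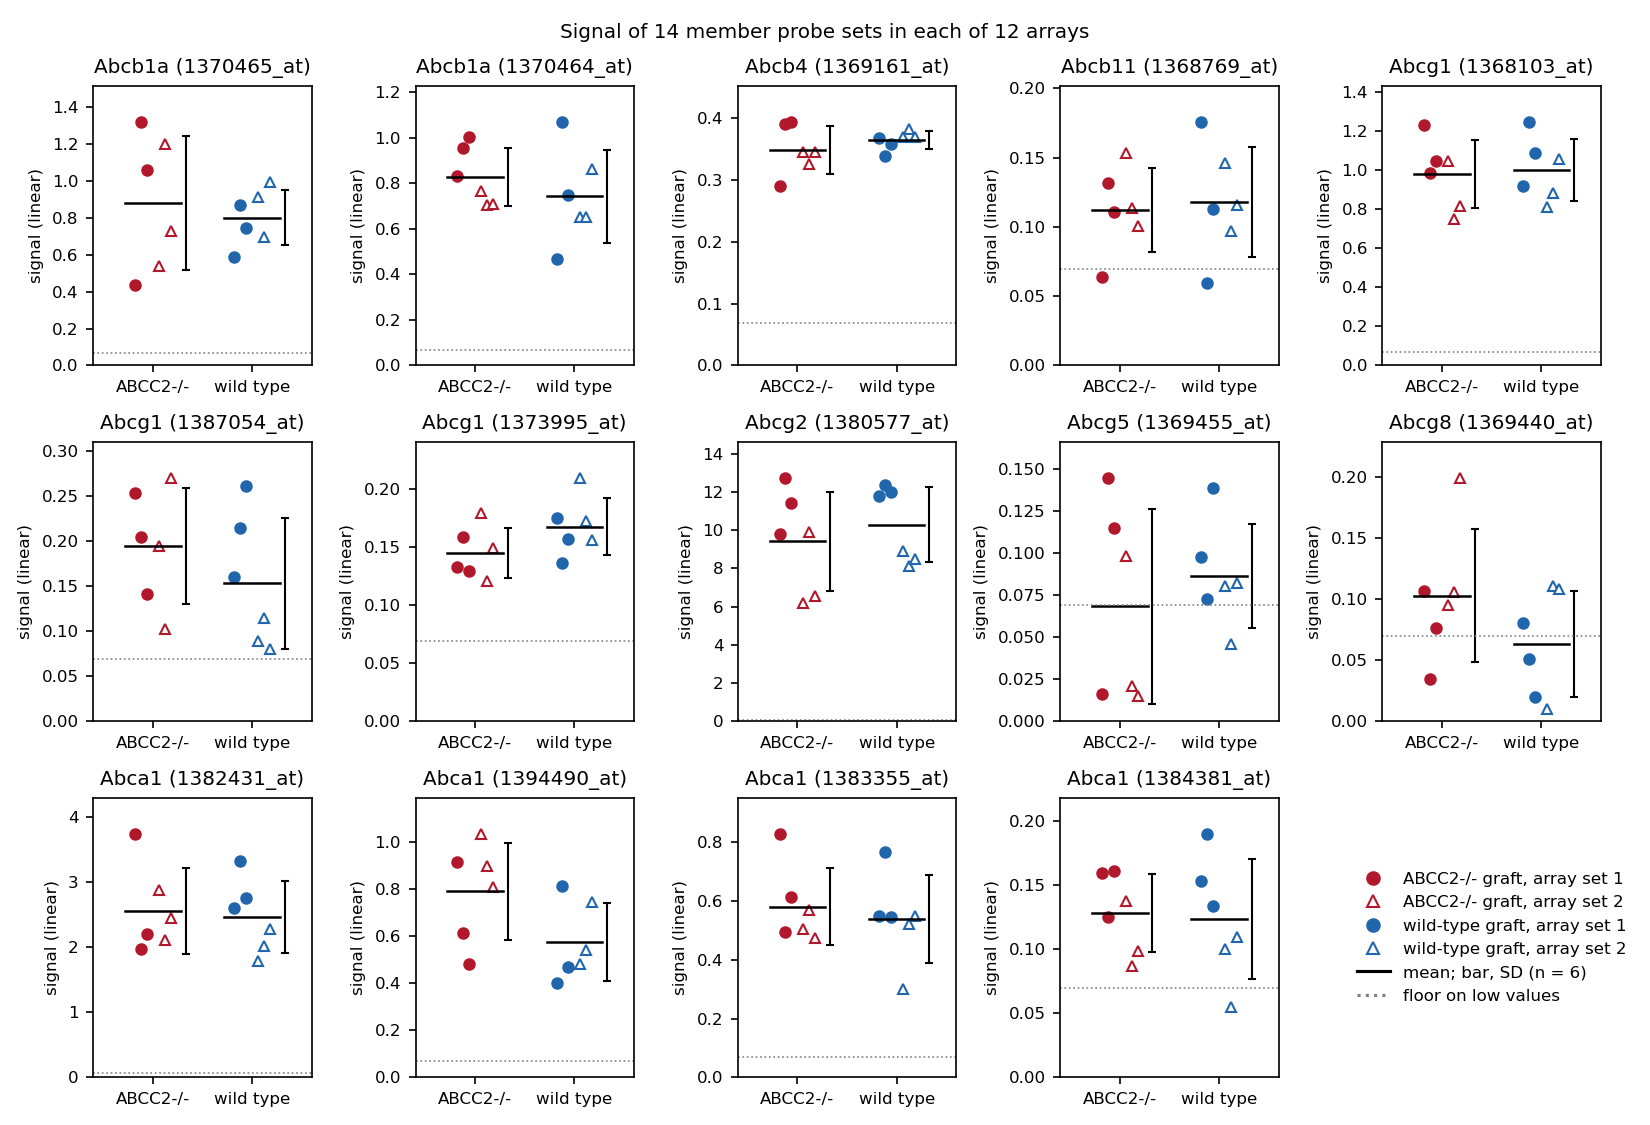
Deposited signal (linear, arbitrary unit) of each of the 14 member probe sets in 12 arrays, with ABCC2-/- grafts on the left and wild-type grafts on the right of each panel, and array sets 1 and 2 as filled circles and open triangles. Black lines are means and bars SD (n = 6). The genotypes overlap in every panel, and the dotted line is the floor of 0.0694.

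Abcg2 encodes BCRP, a pump that works as a dimer. In rat kidney it is an apical pump for urate and for sulfated and other conjugates. Its single probe set, 1380577_at, had a lowest, median and highest signal of 6.2, 9.84 and 12.7 in ABCC2-/- grafts, against 8.16, 10.4 and 12.4 in wild-type grafts. The ABCC2-/- grafts spanned the whole wild-type range, with replicates 3 and 14 below it and replicate 9 above it. The mean was 9.43 ± 2.59 in ABCC2-/- and 10.3 ± 1.96 in wild-type grafts (SD, n = 6 each). The log2 difference was -0.15 (SE 0.17, adjusted p = 0.759 in limma). The 95% confidence interval of the fold ran from 0.699 to 1.16, so a fall to under 0.699 of the wild-type signal, or a rise above 1.16-fold, lay outside it.

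The Abcg2 values differed more between the array sets than between the genotypes. In set 2 the signal was 7.56 ± 2.04 in ABCC2-/- and 8.51 ± 0.379 in wild-type grafts (SD, n = 3 each). In set 1 it was 11.3 ± 1.47 in ABCC2-/- and 12.1 ± 0.277 in wild-type grafts (SD, n = 3 each). The log2 difference of set 2 minus set 1 was -0.60 in ABCC2-/- and -0.50 in wild-type grafts. A difference between the sets of this size, in either direction, was found in 6.66% of the tested probe sets. It is a description, because the sets were drawn from these same values. The genotype difference was -0.20 within set 2 and -0.10 within set 1. It thus had the same sign in both sets, and it was 0.06 with the Gapdh ratio added to the model. Proximal tubule markers, given above by their sum, had a negative difference in 12 of 14 genes (median -0.08, against -0.04 over all genes). None passed the test in limma, and 3 of the 14 had an unadjusted p under 0.05, against 7.64% of all genes. Their part in the Abcg2 values was not tested. In tissue such as this, fewer cells of a type and less RNA per cell cannot be told apart.

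Promoters are printed for Abcg2, for Abca1 and for the paired genes Abcg5 and Abcg8, as examples and not as a comparison of drug pumps with sterol exporters. All are from RefSeq in build GRCr8, 250 bases before to 50 bases after the start that the table uses, 5′ to 3′, and 7 of the 9 members had an entry. For Abcg2 and Abca1 that start lies inside the annotated gene. Capitals mark exact matches on either strand to 4 motifs, none of which overlap here. The TATA box was read as TATAAA, which 14.2% of 33469 rat promoters of this length held. The CCAAT box was read as its 5 letters, which 37.5% of them held. The GC box was read as GGGCGG, held by 33.1%. The E-box was read as CACGTG, held by 6.42%. A match is a run of letters and not a measured binding site. The Abcg2 window had a GC content of 68.0% and 4 GC boxes, and none of the other 3 motifs.
Abcg2 (chr4:89075224-89075523, plus strand): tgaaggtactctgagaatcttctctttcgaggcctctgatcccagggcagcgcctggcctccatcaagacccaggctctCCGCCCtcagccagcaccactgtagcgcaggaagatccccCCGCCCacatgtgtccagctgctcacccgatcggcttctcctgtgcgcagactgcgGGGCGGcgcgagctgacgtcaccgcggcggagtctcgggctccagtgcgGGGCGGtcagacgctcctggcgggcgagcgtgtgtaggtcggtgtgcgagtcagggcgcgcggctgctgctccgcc

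P-glycoprotein in rodents is made from a pair of genes, Abcb1a and Abcb1b, which lie beside Abcb4 in the order Abcb4, Abcb1b, Abcb1a on rat chromosome 4 in the same build. Abcb1a is the form of the blood-brain barrier and gut, and both are found in kidney. Its 2 probe sets gave different profiles over the same 12 grafts. The first, 1370465_at, had a lowest, median and highest signal of 0.437, 0.894 and 1.32 in ABCC2-/- grafts, against 0.59, 0.806 and 0.994 in wild-type grafts. The ABCC2-/- grafts were the more spread, with replicates 5 and 3 below and replicates 9, 10 and 11 above all wild-type grafts. The log2 difference was 0.04 (SE 0.24, adjusted p = 0.957 in limma), with a 95% confidence interval of the fold from 0.723 to 1.47. Its SD within genotypes, 0.50 on the log2 scale, was above that of 92.5% of the tested probe sets, whose median was 0.243.

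Probe set 1370464_at of Abcb1a had 0.703, 0.799 and 1.00 as lowest, median and highest in ABCC2-/- grafts, against 0.467, 0.701 and 1.07 in wild-type grafts. All ABCC2-/- grafts lay inside the wild-type range, which was set by replicate 1 at its low end and replicate 6 at its high end. Here the log2 difference was 0.19 (SE 0.17, adjusted p = 0.701 in limma), with a fold interval of 0.892 to 1.46. ABCC2-/- replicate 5, the lowest of all grafts on the first probe set, had rank 5 of 12 on this one. Over the 12 arrays, with genotype means removed, the profiles of both probe sets had r = 0.39 (rho = 0.34), given as a description. The probe set shared with Abcb1b, 1370583_s_at, had 0.38 ± 0.0924 in ABCC2-/- and 0.348 ± 0.0947 in wild-type grafts (SD, n = 6 each), a log2 difference of 0.14 (SE 0.19, adjusted p = 0.800 in limma). It cannot tell Abcb1a from Abcb1b, so nothing is given for Abcb1b alone.

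**Figure D2:**
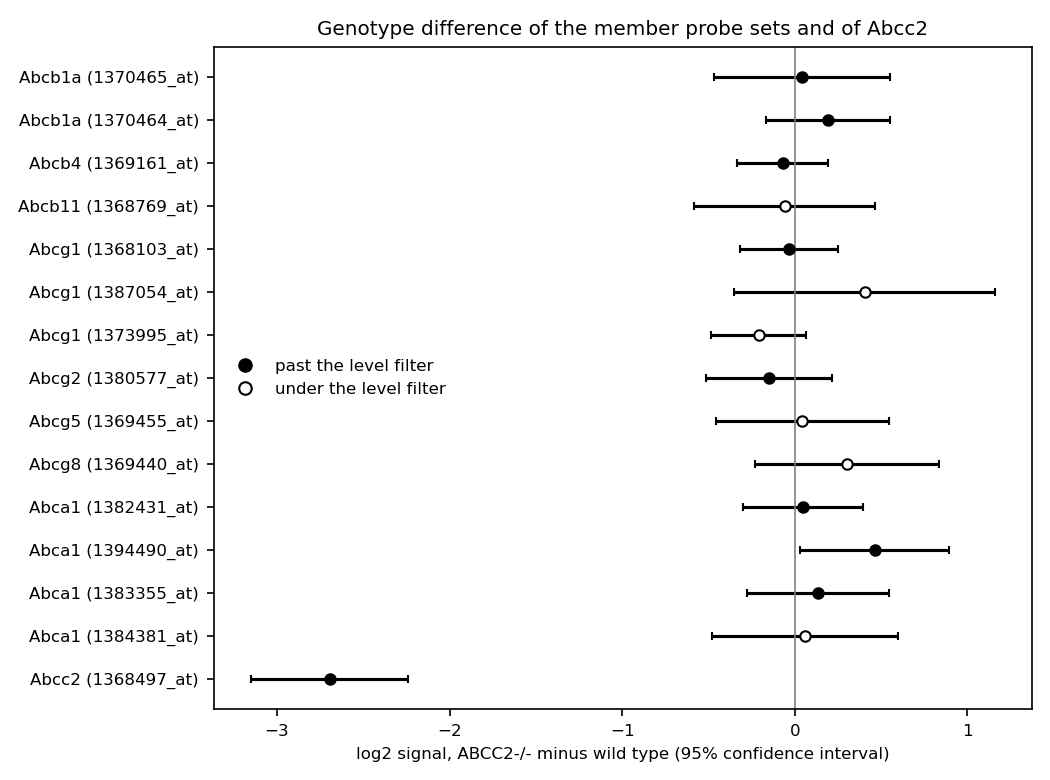
Log2 signal in ABCC2-/- minus wild-type grafts (horizontal axis) with 95% confidence intervals from limma for the 14 member probe sets and Abcc2, filled where the probe set passed the level filter and open where it did not. All intervals but those of Abcc2, at -2.69, and of Abca1 probe set 1394490_at, at 0.46, hold 0.

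Abcb4 flips phosphatidylcholine into bile and was the steadiest of the tested members. Its signal, from probe set 1369161_at, was 0.291, 0.346 and 0.393 (lowest, median and highest) in ABCC2-/- grafts, against 0.339, 0.369 and 0.383 in wild-type grafts. The wild-type values lay within the range of the ABCC2-/- values, which replicates 5 and 10 extended downward and replicates 9 and 11 upward. Its log2 difference was -0.07 (SE 0.12, adjusted p = 0.846 in limma), with a fold interval of 0.793 to 1.14. In array set 2 alone the genotypes did not overlap, with 0.326 to 0.346 in ABCC2-/- and 0.37 to 0.383 in wild-type grafts (n = 3 each), as was so for 29.7% of all tested probe sets and 2 of the 8 exporter probe sets there. In set 1 alone it was 17.9% of all and 0 of the 8. The SD within genotypes was 0.12, larger than that of only 7.66% of the tested probe sets. Abcb11, the bile salt export pump of the hepatocyte canaliculus, was dim. Its signal was 0.112 ± 0.0303 in ABCC2-/- and 0.118 ± 0.0399 in wild-type grafts (SD, n = 6 each), with 1 array of each genotype under the floor. Its log2 difference was -0.06 (SE 0.24, adjusted p = 0.981 in limma).

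Abca1 passes cholesterol and phospholipid to apolipoprotein A-I and is an LXR target. It had 4 probe sets, of which 1, given second here, had the lowest p of all members. The first, 1382431_at, had a lowest, median and highest signal of 1.98, 2.33 and 3.74 in ABCC2-/- grafts, against 1.79, 2.45 and 3.33 in wild-type grafts. The genotypes overlapped almost entirely, and the highest value was that of ABCC2-/- replicate 5. This was a log2 difference of 0.05 (SE 0.16, adjusted p = 0.924 in limma), with a fold interval of 0.812 to 1.32.

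Probe set 1394490_at of Abca1 had 0.48, 0.852 and 1.03 in ABCC2-/- grafts, against 0.401, 0.511 and 0.812 in wild-type grafts (lowest, median and highest). ABCC2-/- replicates 3, 5 and 10 were above every wild-type graft, and 5 of the 6 ABCC2-/- grafts were above the wild-type mean. The mean was 0.791 ± 0.206 in ABCC2-/- and 0.574 ± 0.165 in wild-type grafts (SD, n = 6 each), a 1.38-fold difference with a 95% confidence interval of 1.02 to 1.86. The log2 difference was 0.46 (SE 0.20) with an unadjusted p of 0.0377 and an adjusted p of 0.614 in limma, and an exact permutation test (two-sided) gave p = 0.0844. This was the 1 member probe set with an unadjusted p under 0.05. Its difference was 0.65 within array set 2 (adjusted p = 0.0579 in limma) and 0.28 within array set 1 (adjusted p = 0.753). Both p-values are descriptions, because the sets were drawn from these same values. The ABCC2-/- arrays of set 2 were also those of the lowest Gapdh ratio, so genotype and that ratio cannot be told apart there. Adding the Gapdh ratio to the model gave 0.24. In set 2 alone the signal was 0.912 ± 0.113 in ABCC2-/- and 0.589 ± 0.138 in wild-type grafts (SD, n = 3 each), without overlap, as were 29.7% of all tested probe sets in those 6 arrays. In set 1 it was 0.669 ± 0.222 in ABCC2-/- and 0.56 ± 0.221 in wild-type grafts (SD, n = 3 each), with overlap.

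The other Abca1 probe sets did not show a difference of that size. On 1383355_at the signal was 0.581 ± 0.131 in ABCC2-/- and 0.539 ± 0.149 in wild-type grafts (SD, n = 6 each), a log2 difference of 0.13 (SE 0.19, adjusted p = 0.805 in limma). On the dim 1384381_at it was 0.128 ± 0.0307 in ABCC2-/- and 0.123 ± 0.0465 in wild-type grafts (SD, n = 6 each), a log2 difference of 0.06 (SE 0.25, adjusted p = 0.981 in limma). With the mean of all 4 probe sets in place of each, the log2 difference was 0.18 (adjusted p = 0.711 in limma). ABCC2-/- replicate 5 was highest of 12 on 1382431_at and 1383355_at and second on 1394490_at, and wild-type replicate 6 was the highest wild-type graft on all 4. By Dixon's test none of these grafts was an outlier of its group, nor was any in the 28 groups of the 14 probe sets. Macrophage markers, which mark cells rich in Abca1, had a median difference of 0.13, where that of all genes was -0.04. Of 12 tested, 10 differences were positive and 2 negative, and none passed in limma. An unadjusted p under 0.05 was found for 1 of the 12, against 7.64% of all genes. Their summed signal was 43.7 to 66.7 in ABCC2-/- and 42.3 to 54.6 in wild-type grafts, and Cd163 and Itgam were under the floor in 11 of 12 arrays. Their part in the Abca1 values was not tested.

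The Abca1 promoter had 1 TATA box, 32 to 27 bases before the start, 1 GC box and 1 E-box. A DR4 element, the LXR motif, was searched as a repeat of AGGTCA on either strand with 4 bases between the copies and up to 1 mismatch in each copy. It was found in 1.74% of all rat promoter windows and in 0 of the 7 windows of members. A copy with more than 1 mismatch was not counted. The Abca1 window has such a stretch, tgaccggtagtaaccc, whose other strand reads GGGTTA and CGGTCA with 4 bases between. Whether LXR binds there was not tested. The count of 0 says only that closer matches are not in these 300 bases.
Abca1 (chr5:72596424-72596723, minus strand): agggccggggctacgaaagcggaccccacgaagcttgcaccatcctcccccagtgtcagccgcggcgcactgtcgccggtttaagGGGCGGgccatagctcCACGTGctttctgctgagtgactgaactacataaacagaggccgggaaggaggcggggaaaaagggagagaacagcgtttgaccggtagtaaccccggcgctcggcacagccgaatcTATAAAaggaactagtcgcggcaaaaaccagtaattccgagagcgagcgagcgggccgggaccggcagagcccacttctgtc

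Abcg1 moves cholesterol toward high-density lipoprotein and shares LXR control with Abca1. Its probe set past the filter, 1368103_at, had 0.751, 1.01 and 1.23 in ABCC2-/- grafts, against 0.808, 0.986 and 1.24 in wild-type grafts (lowest, median and highest). Both genotypes covered nearly the same range. Their log2 difference was -0.03 (SE 0.14, adjusted p = 0.936 in limma), with a fold interval of 0.801 to 1.19. The other 2 probe sets of Abcg1 were dim and went opposite ways. On 1387054_at the signal was 0.194 ± 0.064 in ABCC2-/- and 0.153 ± 0.0728 in wild-type grafts (SD, n = 6 each), a log2 difference of 0.40 (SE 0.34, adjusted p = 0.762 in limma). On 1373995_at it was 0.145 ± 0.0218 in ABCC2-/- and 0.168 ± 0.0247 in wild-type grafts (SD, n = 6 each), a log2 difference of -0.21 (SE 0.12, adjusted p = 0.725 in limma). For 1387054_at the difference was 0.91 within array set 2 and -0.10 within array set 1, so its direction depended on the set.

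Abcg5 and Abcg8, which work only as a pair and return plant sterols and cholesterol to bile and gut, lay around the floor. Abcg5 (1369455_at) had 0.0149, 0.0598 and 0.145 in ABCC2-/- grafts, against 0.0461, 0.0816 and 0.139 in wild-type grafts (lowest, median and highest). It was under the floor in 3 ABCC2-/- arrays and 1 wild-type array. Abcg8 (1369440_at) had 0.0349, 0.1 and 0.198 in ABCC2-/- grafts, against 0.01, 0.0657 and 0.11 in wild-type grafts, and was under the floor in 1 ABCC2-/- array and 3 wild-type arrays. After flooring the log2 difference was 0.04 (SE 0.23, adjusted p = 0.996 in limma) for Abcg5 and 0.30 (SE 0.24, adjusted p = 0.762) for Abcg8. For Abcg5 the floor set the direction: with the floor at the 10th percentile of all values the difference was -0.62. No difference between the genotypes was detected for either gene, and values under the floor limit what can be seen at these levels.

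Both genes start from the same stretch of chromosome 6 in opposite directions, with 205 bases between the gene ends, and their promoter windows share 295 bases. The Abcg5 window is therefore shown once, and the Abcg8 window is its other strand, shifted by the few remaining bases. The Abcg5 window held 1 TATA box, at -158 to -153 from the Abcg5 start. It also held 1 CCAAT box on the minus strand, at -13 to -9. Counted from the Abcg8 start, the same TATA box lay at -53 to -48 on the minus strand.
Abcg5 (chr6:15717686-15717985, plus strand): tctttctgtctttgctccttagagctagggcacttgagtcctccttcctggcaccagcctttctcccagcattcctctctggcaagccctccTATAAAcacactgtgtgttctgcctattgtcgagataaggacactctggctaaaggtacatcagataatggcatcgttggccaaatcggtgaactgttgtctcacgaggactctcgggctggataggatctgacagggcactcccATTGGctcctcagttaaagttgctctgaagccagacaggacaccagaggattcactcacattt

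The tested members did not move as 1 group across the arrays. With genotype means removed, the Abca1 probe set 1382431_at and Abcg1 (1368103_at) had r = 0.76 (rho = 0.78) over the 12 arrays, and r = 0.82 with array set means removed as well. For Abca1 1394490_at and Abcg1 it was r = 0.25 (rho = 0.29), and r = 0.80 with set means removed. For Abca1 1383355_at and Abcg1 it was r = 0.72 (rho = 0.71), and r = 0.61 with set means removed. Abcg2 and Abcb1a (1370465_at) had r = 0.39 (rho = 0.55), and r = 0.83 with set means removed. With the other Abcb1a probe set, 1370464_at, Abcg2 had r = 0.32 (rho = 0.47), and r = 0.08 with set means removed. Abcb4 and Abca1 (1382431_at) had r = -0.73 (rho = -0.76). These are descriptions over arrays that share their scaling and their array set, and 36 pairs were looked at, those of the 8 member probe sets and the shared one.

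**Figure D3:**
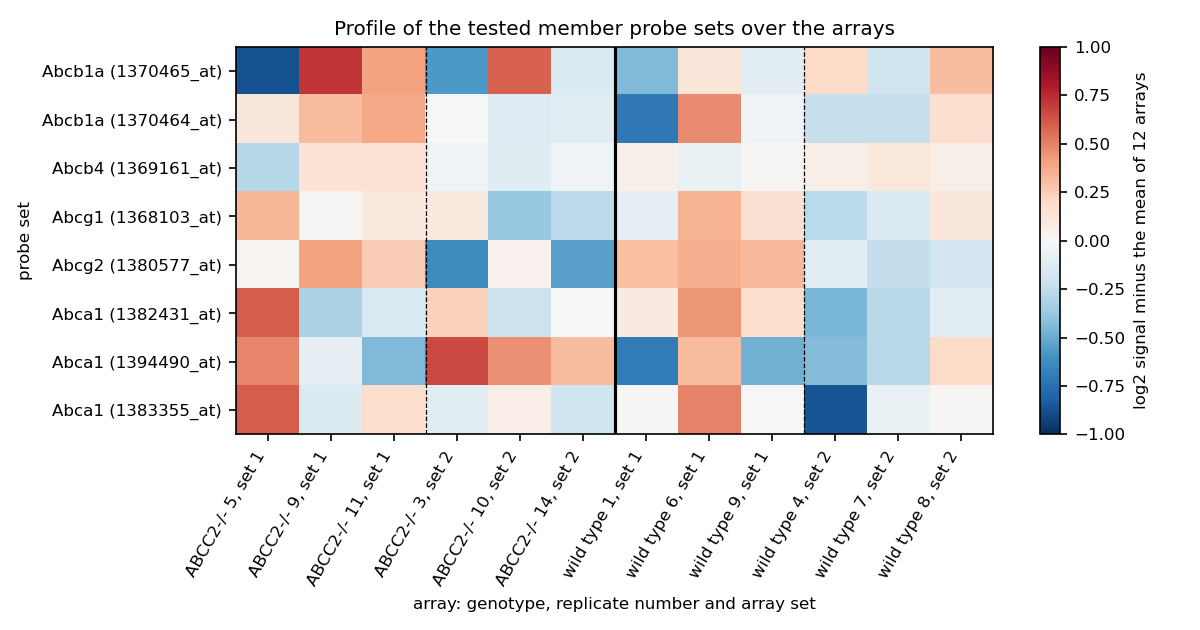
Log2 signal minus the mean of the 12 arrays (colour) for the 8 member probe sets past the level filter (rows) in each array (columns), with the 6 ABCC2-/- grafts left and the 6 wild-type grafts right of the solid line, and array sets parted by dashes. Abcg2 is high in the wild-type arrays of set 1 and in ABCC2-/- replicates 9 and 11, and near its mean in ABCC2-/- replicate 5. The latter is high for Abca1 and low for Abcb1a probe set 1370465_at.

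The named genes with the most similar profile were sought for each tested probe set among 10634 other genes, by Pearson's r over the 12 arrays with genotype means removed. These are the highest of many values, so no test is given. For Abcg2 they were Ankrd13c (r = 0.97, rho = 0.98) and Afg3l1 (r = 0.97), with r = 0.89 and r = 0.90 once array set means were removed. For Abca1 probe set 1382431_at they were Rimklb (r = 0.93) and Vcam1, an adhesion molecule of activated endothelium (r = 0.88). For 1394490_at they were the pseudogene Zfp273l-ps1 (r = 0.88) and Pecam1, a marker of endothelium (r = 0.88), and for 1383355_at Smad1 (r = 0.93) and the myeloid receptor gene Sirpa (r = 0.92). Abcg1 was most like Zfp62 (r = 0.93) and Zfp639 (r = 0.92). Abcb1a was most like Slc25a30 (r = 0.94) and the prolactin receptor gene Prlr (r = 0.88) on 1370465_at, and Ctnnal1 (r = 0.86) and the interferon regulator gene Irf7 (r = 0.86) on 1370464_at. Abcb4 was most like Ccdc120 (r = 0.82) and the leukocyte integrin gene Itgb2 (r = 0.81). Endothelial markers had a summed signal of 29.5 to 33.6 in ABCC2-/- and 29.8 to 35.6 in wild-type grafts, and 7 of 11 tested had a negative difference (median -0.08). None passed the test in limma, at an adjusted or an unadjusted p of 0.05, where 7.64% of all genes had an unadjusted p under 0.05.

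The genes that hold, regulate or work with these exporters did not pass the test either, with 0 in each of 6 lists in limma. At an unadjusted p under 0.05 it was 2 of 10 scaffold genes, 1 of 11 regulators, 1 of 13 LXR genes, 2 of 15 cholesterol genes, 1 of 8 flippase and bile acid genes and 1 of 28 other ABC transporters, against 7.64% of all genes. A gene with several probe sets was read from the one of highest mean signal. Of the 10639 genes this left, 58.6% had a negative difference, and the median was -0.04. Of 10 tested apical scaffold and trafficking genes, 7 had a negative difference (median -0.13). The lowest p belonged to Msn, the membrane-to-actin linker moesin, at -0.25 (SE 0.11, adjusted p = 0.614 in limma), and to Nherf1, the brush border scaffold, at -0.18 (SE 0.08, adjusted p = 0.617). Of 11 nuclear receptors and other factors that regulate drug pumps, 8 had a negative difference (median -0.11), with the coactivator gene Ppargc1a at -0.37 and the bile acid receptor gene Nr1h4 at -0.21. The xenobiotic receptor gene Nr1i2 had 0.09 and Nfe2l2, which encodes NRF2, 0.07.

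In the sterol pathway none of the LXR genes passed the test in limma. Of 13 tested LXR receptors, partners and targets 8 had a negative difference (median -0.05). Nr1h3 and Nr1h2, the LXR genes themselves, had -0.13 and -0.01. The members with the lowest p were Rxrb, which encodes a partner of LXR, at -0.60 (SE 0.23, adjusted p = 0.606 in limma), and Lpcat3, a lysophospholipid acyltransferase that LXR induces, at 0.21 (SE 0.12, adjusted p = 0.635). The other LXR targets Srebf1 at 0.26, Fasn at 0.06, Pltp at 0.03, Apoe at -0.05, Lpl at -0.08 and Mylip at -0.11 did not pass. Of 15 genes of cholesterol uptake, trafficking and oxysterol synthesis 8 had a negative difference (median -0.03). Apob, the structural protein of low-density lipoprotein, had 0.144 ± 0.105 in ABCC2-/- and 0.319 ± 0.0891 in wild-type grafts (SD, n = 6 each), a log2 difference of -1.28 (SE 0.36, adjusted p = 0.606 in limma). Scarb1, the high-density lipoprotein receptor, had -0.45 (SE 0.15, adjusted p = 0.606).

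Among 8 tested flippase and bile acid genes 6 had a negative difference (median -0.10). Slc10a2, the apical bile acid importer, had 0.797 ± 0.0874 in ABCC2-/- and 1.03 ± 0.0946 in wild-type grafts (SD, n = 6 each), a log2 difference of -0.37 (SE 0.10, adjusted p = 0.606 in limma). Slc10a1, the importer known from hepatocytes, had 0.26 (SE 0.18, adjusted p = 0.646). Of 28 other tested ABC transporters 21 had a negative difference (median -0.10), and 1 had an unadjusted p under 0.05. This was Abcc4, the MRP4 gene of the same apical membrane, at 0.31 (SE 0.12, adjusted p = 0.606 in limma), followed by the lipid transporter gene Abca3 at -0.27 (SE 0.13, adjusted p = 0.627). Of the other marker lists, the difference was positive for 4 of 6 tested hepatocyte genes (median 0.05), for 1 of 6 T lymphocyte genes (median -0.15) and for 0 of 3 erythrocyte genes (median -0.30). None of these passed in limma, and 1, 0 and 0 had an unadjusted p under 0.05, against 7.64% of all genes. Within array set 2 alone 7 genes of all 12 lists passed in limma, all lower in ABCC2-/- grafts: Msn, Nherf2, Ppargc1a, Rxrb, Slc5a2, Slc26a1 and Cyp2c11. In the same 6 arrays 2.71% of all tested probe sets passed as lower and 3.68% as higher, and 0 of the 8 exporter probe sets passed. These shares are of probe sets, while list genes were read from 1 probe set each, so they are not a like comparison. These counts are descriptions, because the sets were drawn from these same values. The log2 Gapdh ratio in those arrays was 0.359 to 0.449 in ABCC2-/- and 0.71 to 0.913 in wild-type grafts. Genotype and that ratio thus cannot be told apart there.

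**Figure D4:**
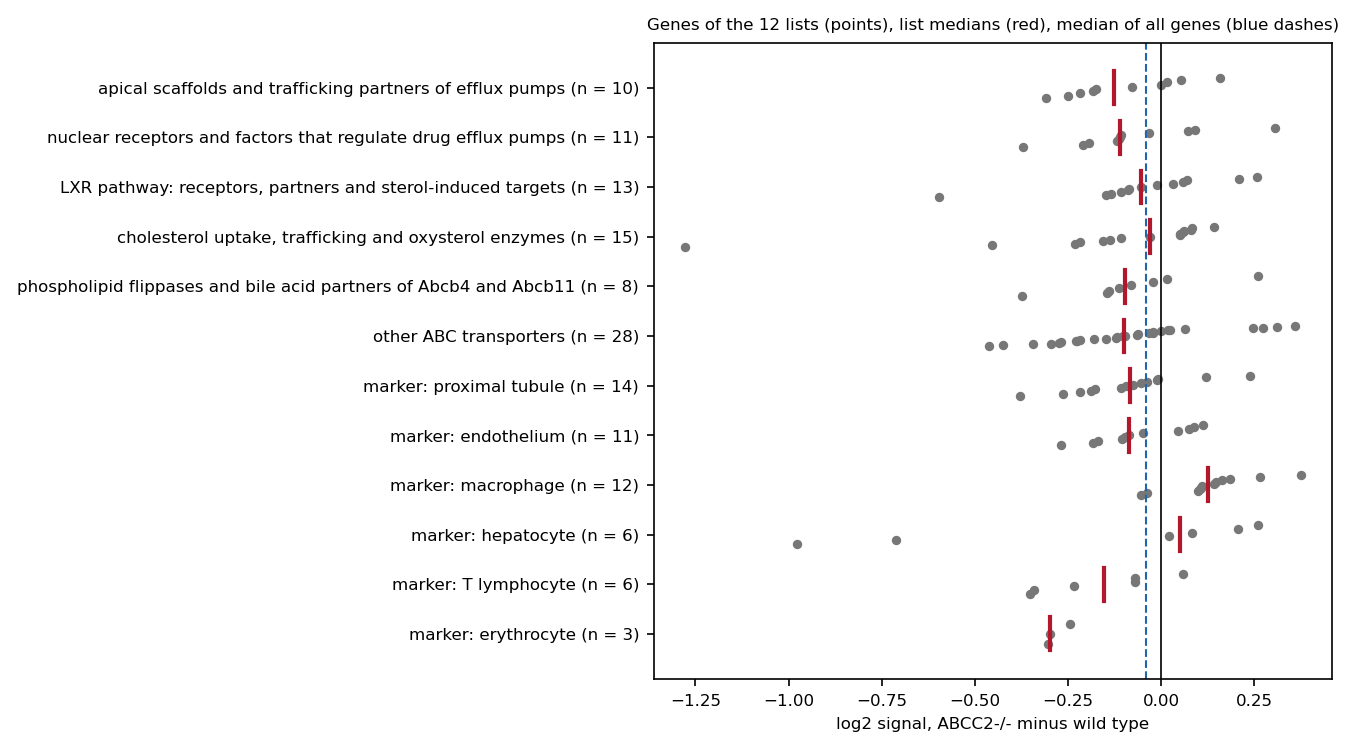
Log2 signal in ABCC2-/- minus wild-type grafts of each tested gene (points) in 6 lists of exporter-related genes and 6 lists of cell type markers, with the list median in red and the median of all genes, -0.04, as a blue dashed line. No point passed the test over all 12 arrays.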

How the data were processed

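Per the labels' protocols, RNA from the renal cortex of each of 12 grafts was biotin-labelled and hybridised to 1 Affymetrix 3′ array. The deposited values are probe set intensity on a linear scale, for 31099 probe sets. Per the submitters' processing notes MAS5 and GCOS were used, with no version stated, and how signals were scaled is unknown here. In the file 3.56% of values were at the minimum of 0.01. Genotype and replicate number were taken from the sample titles.

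The 57 control probe sets were removed, values under the pooled 20th percentile were raised to it, log2 was taken, and probe sets at or above the 40th percentile of mean log2 signal (-2.53) were tested. The arrays were not normalized further, and their median log2 signals lay between -0.167 and 0.0532. No 2 arrays were identical. Genotype was the only term of the linear model, fitted with limma 3.58.1 (R 4.3.3, eBayes with a trend) with Benjamini-Hochberg adjustment. The fit was checked on simulated data in which values varied independently. These lacked the array sets, so the check says nothing of errors that the sets may cause. Probe sets under the filter were read from the same fit without it. Single probe sets were also compared by an exact two-sided permutation test over 924 assignments, which cannot give a p below 0.00216.

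Names came from the platform annotation, which gave 1 symbol for 20826 probe sets and several for 436, updated by Entrez number to the GRCr8 gene table, and 9780 were not listed. Members, the 12 lists and the tests were chosen with earlier results of these data known. Named genes were all members, Abcc2, the list genes past the threshold or else the 2 of lowest p, and the 2 most similar profiles. Nr1i2, Nfe2l2, Nr1h3, Nr1h2, Srebf1, Fasn, Pltp, Lpl, Mylip, Apoe and the 7 list genes of array set 2 were named after their values were seen. Alternatives varied the covariates, weights, variance model, normalization, floor, level filter and set of arrays.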

Additional observations from a re-analysis of the deposited data

How the results depend on the processing

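The count of 0 exporter probe sets past the threshold held in all 12 fits that left out 1 array and in all 16 other alternatives with a count, 1 of them (without the 3 ABCC2-/- arrays of the lowest Gapdh ratio) chosen after seeing the data. The count over all probe sets was 4, and 3 to 5 with 1 array left out. It was 2 with the filter at the 60th percentile, which removed Abcc2, 112 with the array set as a block, 1190 in array set 2 alone and 0 by exact permutation. The list genes past the threshold were 7 in array set 2 alone, where genotype and the Gapdh ratio cannot be told apart. By exact permutation the Abcc2 difference of -2.69 had an adjusted p of 0.498, since no p can be below 0.00216, and with 1 array left out it lay between -2.82 and -2.50.

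Small differences changed sign, and the cause was not tested except where given. Abcg5 was -0.62 with the floor at the 10th percentile, -0.20 with log2 of signal plus 0.1 and -0.063 after quantile normalization. Abca1 1384381_at was -0.013 with the floor at the 30th percentile, -0.070 after quantile normalization and -0.090 in array set 1, and 1382431_at was -0.010 with array weights and -0.19 in set 1. Adding the Gapdh ratio gave 0.085 for Abcg1 1368103_at and 0.062 for Abcg2, where array set 1 alone gave 0.0084 and -0.10. Leaving out the 3 ABCC2-/- arrays gave 0.13 and 0.15 for these, and -0.0024 for Abcg8, but it set ABCC2-/- arrays of set 1 against wild-type arrays of both sets, so genotype and array set are mixed in it and nothing is read from these signs. In set 1 alone Abcb4 was 0.0021 and Abcg1 1387054_at -0.099. In set 2 alone Abcb1a 1370465_at was -0.14 and Abcb11 0.031. With the mean of its probe sets Abcg1 was 0.054. With 1 array left out the ranges that crossed 0 were -0.068 to 0.14 for Abca1 1382431_at, -0.026 to 0.25 for 1383355_at, -0.10 to 0.19 for 1384381_at, -0.20 to 0.075 for Abcb11, -0.10 to 0.22 for Abcb1a 1370465_at, -0.10 to 0.039 for Abcg1 1368103_at and -0.092 to 0.18 for Abcg5. Abca1 1394490_at stayed positive, between 0.37 and 0.60 with 1 array left out. No paired analysis was possible because the genotypes share 1 replicate number alone. Signals near the floor limit what can be seen for Abcb11, Abcg5 and Abcg8.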
